A study of Homo sapiens with 6 samples.

Results

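The circRNAs described here were the most abundant catalogued ones in C28/I2 cells: rows with an hsa_circ identifier, the naming of the public catalogue of circRNAs, and a sum of at least 120 junction reads over the 6 libraries. Of 3089 listed circRNAs, 77 met both conditions, and 2286 of the 3089 carried an hsa_circ identifier. They were chosen by this sum, taken over both groups without regard to treatment, so that the levels themselves are a description, while the difference between the treatments was not used in the choice. C28/I2 is an immortalised line of human chondrocytes, the cells that build and maintain cartilage. All libraries came from this 1 line. In the cholesterol group the cells received 10 μg/mL cholesterol for 48 h, and the control group received none, with 3 libraries in each group. The methods describe 6 cell specimens, 3 in each group, grown in dishes. The labels do not say whether those of a group were prepared separately, so the spread between these libraries may in part be technical. The p-values of edgeR, the main test, rest on this spread pooled over the listed circRNAs, and not on that of each circRNA. The table holds circRNAs and no linear RNA, so the levels of cartilage marker genes could not be read from it.

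A circRNA arises by back-splicing, in which the spliceosome links an exon's 3′ end backwards, to its own 5′ end or that of an earlier exon, instead of to the next exon downstream. The product is a closed loop without free ends, which is why RNase R, an exonuclease used on these libraries, degrades linear RNA and spares it. A closed loop is also out of reach of most exonucleases of the cell, and circRNAs therefore tend to be long-lived. Many come from exons of protein-coding genes, in particular from early exons flanked by long introns. Each circle has a single back-splice junction, and the reads across it were counted, so that the length of the circle does not enter the count in the way that the length of an mRNA does.

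The junctions of 8 circles that carry the results below are shown as the reads see them, on the strand of the RNA and from 5′ to 3′, in 54 bases. The 16 capitals mark the junction, with the last 8 bases of the circle followed by its first 8. For 6 of the 8 circles these are ends of annotated exons, and for ZNF124 and MIR646HG 1 end is not. This sequence order does not occur in the linear transcript, and the 40 central bases of each were found in 0 annotated transcripts.

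hsa_circ_0002922 (ZNF124): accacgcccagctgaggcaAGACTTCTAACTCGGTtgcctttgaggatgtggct

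hsa_circ_0001174 (MIR646HG): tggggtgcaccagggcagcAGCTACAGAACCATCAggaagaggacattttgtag

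hsa_circ_0005090 (SMYD3): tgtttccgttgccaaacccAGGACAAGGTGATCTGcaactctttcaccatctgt

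hsa_circ_0001326 (PHLDB2): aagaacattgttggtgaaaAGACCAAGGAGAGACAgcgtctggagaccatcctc

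hsa_circ_0001355 (RSRC1): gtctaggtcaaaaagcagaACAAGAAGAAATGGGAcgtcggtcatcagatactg

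hsa_circ_0008500 (DLG1, longer circle): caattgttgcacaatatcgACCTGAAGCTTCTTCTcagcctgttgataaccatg

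hsa_circ_0001383 (DLG1, shorter circle): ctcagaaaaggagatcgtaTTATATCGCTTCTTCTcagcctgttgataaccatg

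hsa_circ_0014606 (YY1AP1): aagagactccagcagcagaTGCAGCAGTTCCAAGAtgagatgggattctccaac

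The 2 DLG1 junctions share every base after the junction and differ before it, because both circles begin at the same exon and end at different ones. The YY1AP1 junction cannot be placed with certainty, since the 27 bases on either side of it also match the GON4L gene elsewhere on chromosome 1.

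The 77 circRNAs made up 2.49% of the listed circRNAs and held 19961 of the 70508 junction reads (28.3%). Their sums ran from 120 to 1026 reads with a median of 179, against a median of 8 reads over all listed circRNAs. The 10 most abundant held 34.0% of the reads of the 77, and 20 were needed to reach 50%. Below them the levels fell off gradually. At least 800 reads were counted for 2 circRNAs, at least 400 for another 10 and at least 200 for another 23, and the remaining 42 had fewer than 200. The limit of 120 thus lies on a continuous slope. Just inside it were hsa_circ_0005386 with 120 reads and hsa_circ_0000478 with 121, and just outside it were hsa_circ_0008011 with 119 and hsa_circ_0003596 with 118. Another 6 circRNAs without a catalogue number also had 120 reads or more (123 to 466) and are not part of the 77.

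Every one of the 77 was detected in all 6 libraries. The smallest count of any of them in any library was 5 reads and the largest was 195, and 70 of the 77 had at least 10 reads in every library. Total junction reads were 10944, 14322 and 9168 in cholesterol replicates 1 to 3 and 11142, 11351 and 13581 in control replicates 1 to 3. The share of these reads held by the 77 was 27.7% (95% Wilson interval 26.8 to 28.5), 28.3% (27.5 to 29.0) and 30.5% (29.6 to 31.5) with cholesterol. In the controls it was 29.7% (28.9 to 30.6), 28.6% (27.8 to 29.4) and 26.0% (25.3 to 26.7). These intervals cover counting error only, because reads without molecular identifiers are not independent molecules. With cholesterol the mean share was 28.8% ± 1.51 and in the controls it was 28.1% ± 1.90 (SD, n = 3 each), and the libraries of the 2 groups overlapped. Cholesterol replicate 3, the library with the fewest junction reads and with 918 detected circRNAs against 1179 to 1485 in the others, had the highest share. It also held the lowest normalised level for 24 of the 77, against 6 to 17 in the other libraries. Its TMM normalisation factor was the largest, 1.14 against 0.93 to 1.03, and a larger factor gives lower normalised levels.

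**Figure D1:**
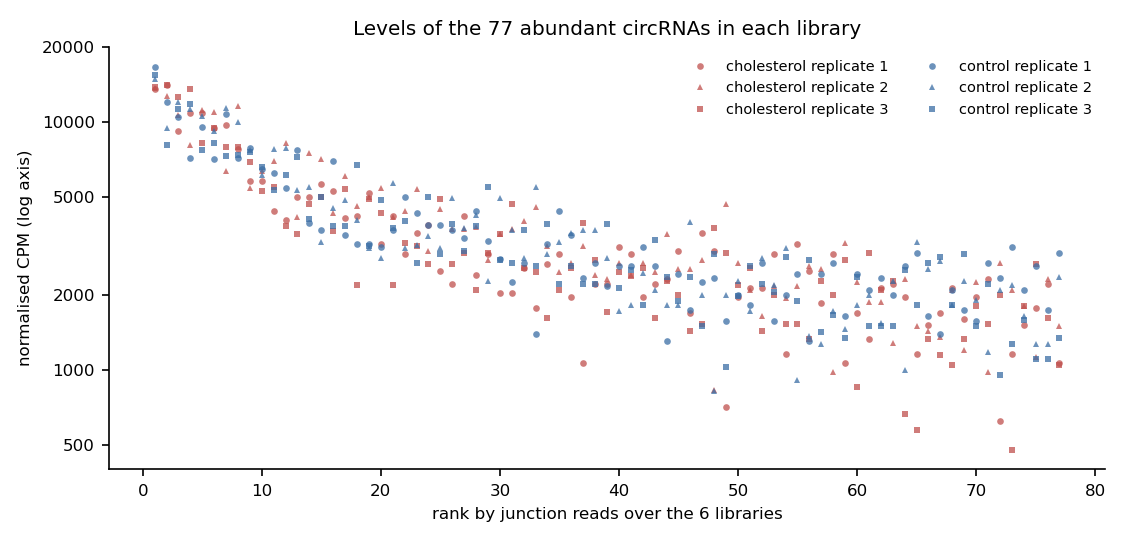
Level of each of the 77 circRNAs in each of the 6 libraries, as CPM after TMM normalisation (log axis), against its rank by the sum of reads. Symbols mark the replicate and colours the group. The points of both groups descend together from rank 1, and the scatter between libraries widens toward the end of the order.

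The most abundant circRNAs stood near the top in every library, which follows in part from their choice by summed reads, but their order moved. hsa_circ_0007761, for example, ranked 5, 12 and 7 in cholesterol replicates 1 to 3 and 3, 3 and 9 in control replicates 1 to 3. In the following, levels are CPM, the count scaled to a common total of junction reads, after TMM normalisation, which adjusts each library for its composition. hsa_circ_0000448 had 152, 182 and 144 reads with cholesterol and 191, 162 and 195 in the controls, and it ranked first in 4 of the 6 libraries. Its level was 13664 ± 104 CPM (SD, n = 3) with cholesterol and 15647 ± 937 CPM (SD, n = 3) in the controls. hsa_circ_0001006 followed with 158, 168 and 148 reads with cholesterol and 138, 103 and 102 in the controls, and it ranked first in the other 2 libraries. No circRNA of the first 10 ranked lower than 16 in any library.

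The circle at rank 3, hsa_circ_0002922, comes from ZNF124, which encodes a zinc-finger protein. It had 103, 142 and 132 reads with cholesterol and 120, 131 and 142 in the controls. Among the 77 this was the one whose edgeR interval stayed closest to 0, and its groups overlapped. Ranks 4 to 8 were taken by hsa_circ_0001445 (725 reads, or 10827 ± 2747 against 10073 ± 2547 CPM), hsa_circ_0008896 (677), hsa_circ_0007386 (634), hsa_circ_0007761 (615) and hsa_circ_0005158 (608). These neighbours differed by less than their spread between libraries. Their host genes are not given here, because the table lists identifiers without genes and these 5 are not in the copy of the sequence list used below.

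hsa_circ_0001174 at rank 9 comes from MIR646HG, a long non-coding RNA gene that hosts a microRNA. It had 65, 72 and 72 reads with cholesterol and 90, 84 and 95 in the controls. All 3 cholesterol libraries lay below all 3 controls in reads and after TMM normalisation. At rank 10, hsa_circ_0001238 from CCDC134, which encodes a coiled-coil protein, had 65, 84 and 55 reads with cholesterol and 74, 67 and 83 in the controls.

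Positions were known for 14 of the 77, those included in the copy of the study's sequence list used here, which holds 499 circRNAs and is shortened. The junctions of all 14 matched the GRCh38 genome. At all 14, the bases AG stood just before the circle and GT just after it, the dinucleotides of the usual splice sites, as in 496 of the 499. Both ends fell on exon ends of 1 GENCODE transcript for 11 of the 14 and for 465 of the 485 other circRNAs in the list. Because the list is shortened, the comparison with these others is a description without a test.

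The 11 circles were short and made of few exons. Each held 2 or 3 exons, as did 300 of the 465 others (64.5%), and none was a single exon, against 22 of the others. Their length without introns was 256 to 666 nucleotides with a median of 333, against a median of 378 in the others. The first exon of the circle was exon 2 of the transcript in 5 of the 11 (45.5%) and in 128 of the others (27.5%). The intron upstream had a median of 10996 bases, against 7528 in the others, and the intron downstream had a median of 12371 against 7311. The longest flank was the intron upstream of the SMYD3 circle, with 397263 bases. A circle that opens at exon 2 often takes in the start codon, since first exons are commonly non-coding. A start codon lay in 2 of the 11 (18.2%), in CCDC134 and RSRC1, and in 63 of the others (13.5%). The whole circle was coding sequence in 8 of the 11 (72.7%) and in 378 of the others (81.3%).

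The circles came from 13 host genes. None of these was in the lists of cartilage matrix and chondrocyte identity genes (0 of 16), matrix-degrading enzymes (0 of 4), cholesterol handling genes (0 of 21) or genes of fibroblasts and other cells (0 of 7). The host genes of the other circRNAs in the sequence list were also absent from the cartilage, matrix-degrading and fibroblast lists. Of them, SCAP, SOAT1 and SREBF2 belonged to the cholesterol handling genes. SCAP is a sterol-sensing protein that escorts the transcription factors of the SREBP family, SREBF2 encodes one of these, and SOAT1 esterifies cholesterol for storage. The circles of the 13 host genes all lay on chromosomes 1, 3, 20 or 22. Because the sequence list is shortened, a gene whose circles it leaves out could not appear here. These absences therefore cannot show whether the genes of the 4 lists give abundant circRNAs.

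The host genes are described in turn, and no function shared among them was tested. The SMYD3 circle, hsa_circ_0005090, spans exons 6 to 8 at chr1:245915530-245929937 on the minus strand, and SMYD3 is a lysine methyltransferase. The KDM1A circle, hsa_circ_0009061, spans exons 2 to 4 at chr1:23030469-23050520 on the plus strand, and KDM1A is a histone demethylase. It had 33, 29 and 21 reads with cholesterol and 18, 24 and 26 in the controls, and the groups overlapped. The RAD54L2 circle, hsa_circ_0001307, lies at chr3:51541498-51590559 on the plus strand, in a gene for a helicase of the SNF2 family. Its 5′ end lies within an exon and not at an annotated exon start. It had 33, 32 and 25 reads with cholesterol and 30, 20 and 32 in the controls. RSRC1, a protein rich in arginine and serine that takes part in splicing, gave hsa_circ_0001355 from exons 2 and 3 at chr3:158122103-158123991 on the plus strand. The ZNF124 circle lies at chr1:247155566-247159813 on the minus strand, where its 3′ end falls inside an annotated exon without being an exon end. The YY1AP1 circle, hsa_circ_0014606, lies at chr1:155676548-155679512 on the minus strand and covers exons 3 to 5 of a transcript of this gene, which encodes a partner of the transcription factor YY1. It had 25, 31 and 18 reads with cholesterol and 25, 31 and 49 in the controls. The bases on either side of its junction also match GON4L at chr1:155777622-155777648 and chr1:155784063-155784089, so its reads could come from either gene.

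The remaining host genes follow in the same way. DLG1 is a scaffold protein of cell junctions, NF2 encodes merlin, a tumour suppressor that links the membrane to the cytoskeleton, and PHLDB2 anchors microtubules at the cell cortex. The NF2 circle, hsa_circ_0005386, spans exons 2 to 4 at chr22:29636751-29642285 on the plus strand and had 12, 20 and 11 reads with cholesterol and 34, 26 and 17 in the controls. The PHLDB2 circle, hsa_circ_0001326, spans exons 3 to 5 at chr3:111913319-111920419 on the plus strand. OSBPL10 belongs to the family of oxysterol-binding proteins. Its circle, hsa_circ_0008549, spans exons 2 and 3 at chr3:31876433-31879830 on the minus strand and had 25, 32 and 29 reads with cholesterol and 31, 40 and 28 in the controls. The OSBPL10 groups overlapped, with a log2 fold change of cholesterol over control of −0.20 (SE 0.33). In the fits without 1 library this value ran from −0.39 (without control replicate 3) to −0.01 (without control replicate 2). The CCDC134 circle spans exons 2 to 4 at chr22:41808875-41810291 on the plus strand. The circle of ATXN10, the gene of ataxin-10, is hsa_circ_0001247 and spans exons 7 to 9 at chr22:45729425-45740538 on the plus strand. The MIR646HG circle lies at chr20:60180050-60180913 on the plus strand, and its 5′ end lies outside the annotated exons.

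Where a host gene named above gave more than 1 circle in the list, a single circle held most of the junction reads. These genes were included because they hold a circle chosen for its reads, so a dominant circle follows in part from the choice. Host genes without such a circle were not compared, and circles missing from the shortened list are not counted. At ATXN10 the circle of exons 7 to 9 held 419 of 619 reads (67.7%) and the other 8 circles held 2 to 69 reads each. Most of these began at exon 2 or exon 4, upstream of the abundant one. At CCDC134 the circle of exons 2 to 4 held 428 of 509 reads (84.1%). The second CCDC134 circle, hsa_circ_0008806, opened at the same exon 2, ran to exon 6 and had 14, 11 and 28 reads with cholesterol and 8, 10 and 10 in the controls. The shares were 96.6% for the ZNF124 circle and 89.5% for the PHLDB2 circle.

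DLG1 was the only one of these genes with 2 circles among those of the 77 whose positions were known. The longer one, hsa_circ_0008500, spans exons 12 to 14 at chr3:197104903-197119530 on the minus strand in 381 nucleotides. The shorter one, hsa_circ_0001383, spans exons 12 and 13 at chr3:197115927-197119530 in 278 nucleotides. The longer had 33, 58 and 34 reads with cholesterol and 57, 34 and 50 in the controls, and the shorter had 24, 28 and 11 with cholesterol and 24, 20 and 23 in the controls. The longer circle thus had more reads than the shorter in all 6 libraries, and it held 67.0% ± 8.84 (SD, n = 3) of the reads of both with cholesterol and 67.3% ± 3.85 (SD, n = 3) in the controls.

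At SMYD3 the share of the abundant circle was larger with cholesterol in every library. It was 79.7%, 83.9% and 86.7% with cholesterol and 66.7%, 62.1% and 70.0% in the controls. The means were 83.4% ± 3.48 and 66.2% ± 3.98 (SD, n = 3; exact two-sided permutation test, p = 0.1, the smallest that 3 libraries against 3 allow). Over the 6 loci compared in this way, the Benjamini-Hochberg adjusted p of this exact test was 0.6. The second SMYD3 circle, hsa_circ_0017306 of exons 3 to 5, had 16, 18 and 8 reads with cholesterol and 17, 19 and 19 in the controls. Another one, hsa_circ_0005034 of exons 2 to 5, had no reads with cholesterol and 2, 3 and 8 in the controls, where a count of 0 allows up to 3 reads. The share is not independent of the level of the abundant circle, which is described below.

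**Figure D2:**
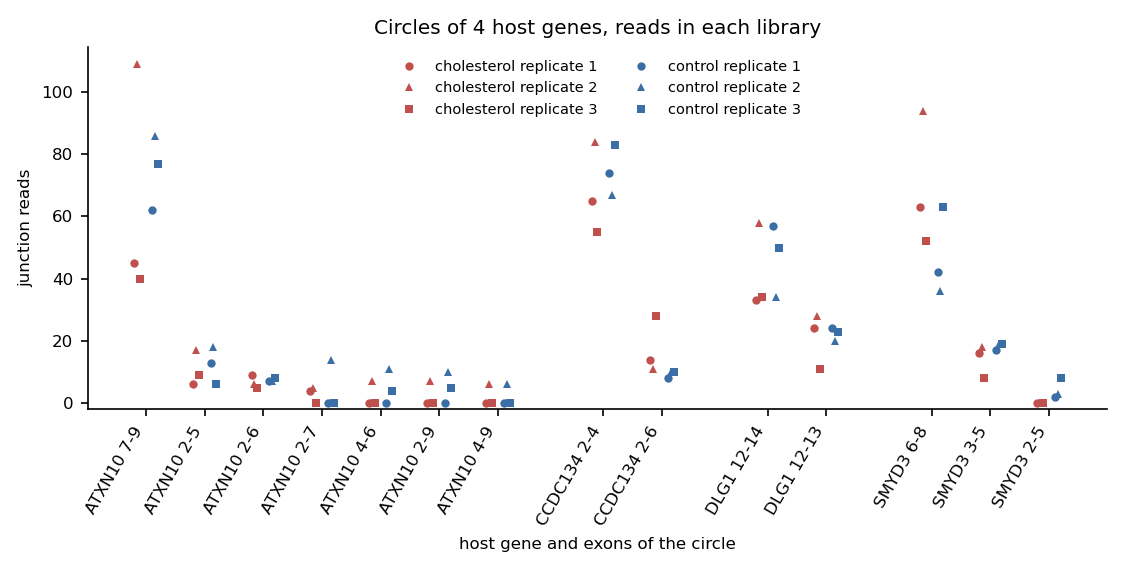
Junction reads of the circles of ATXN10, CCDC134, DLG1 and SMYD3 with 12 or more reads in all, 1 point per library, labelled by the first and last exon of the circle. One circle stood above the rest at ATXN10, CCDC134 and SMYD3, where the exon 7 to 9 circle of ATXN10 had 40 to 109 reads a library, and at DLG1 both circles had 11 reads or more in each library.

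The spread between replicates differed among the 77. The within-group SD of log2 CPM (with a pseudocount of 1) had a median of 0.34 over the 77 and ran from 0.04 to 1.08. It was 0.28 for the 20 circRNAs with the most reads and 0.46 for the 20 with the fewest. The 225 catalogued circRNAs that were also detected in every library but had fewer reads (median 67) had a median SD of 0.66. The estimated variance between replicates was above counting error for 59 of the 77, and over all 77 it had a median of 2.07 times counting error. With 3 libraries a group, counting error alone often gives an estimate above it, so a single such value does not show extra spread.

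The smallest spread was that of hsa_circ_0001017. It had 58, 66 and 51 reads with cholesterol and 37, 34 and 40 in the controls, and after normalisation its libraries differed by an SD of 0.04 on the log2 scale. The next were hsa_circ_0000448 (0.06) and hsa_circ_0001238 of CCDC134 (0.10). Their variances were 0.0322, 0.321 and 0.344 times counting error, and since these 3 were picked as the smallest SDs of 77, the SDs understate the error of their levels. Others moved several-fold between libraries of 1 group. hsa_circ_0006988 had 34, 11 and 39 reads with cholesterol and 27, 9 and 37 in the controls (SD 1.08), and both low values were in the libraries numbered 2. The PHLDB2 circle, hsa_circ_0001326, had 8, 62 and 31 reads with cholesterol and 18, 22 and 13 in the controls (SD 1.06). hsa_circ_0002755 had 7, 36 and 21 reads with cholesterol and 27, 23 and 12 in the controls (SD 0.94). For the last 2, cholesterol replicate 1 was the lowest and cholesterol replicate 2 the highest of their group, whereas cholesterol replicate 2 was the lowest for hsa_circ_0006988.

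**Figure D3:**
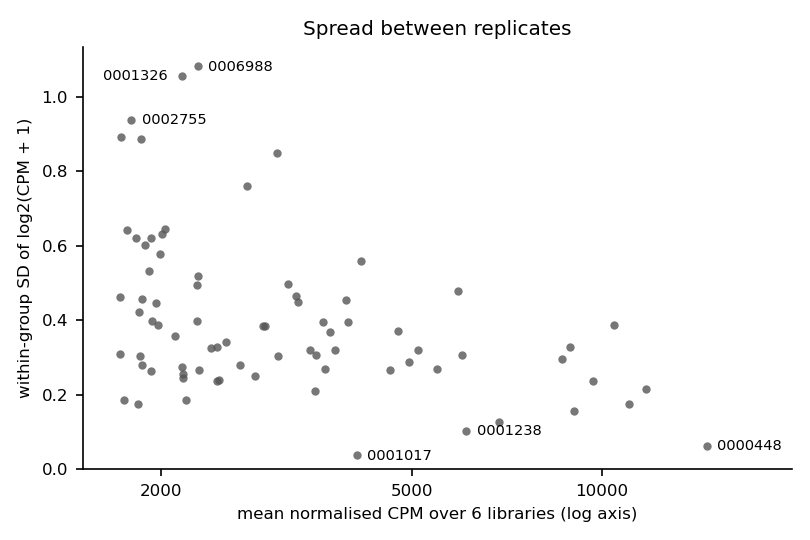
Within-group SD of log2(CPM + 1) against mean normalised CPM (log axis) for each of the 77 circRNAs, with the 3 steadiest and the 3 most variable labelled by the number after hsa_circ_. The SD reached 1.08 among circRNAs of low level and stayed under 0.5 for the 10 most abundant.

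The likeness of libraries within a group and between groups covered overlapping ranges. Over the 77 circRNAs, the correlation of log2 CPM was 0.71 to 0.80 in the 6 pairs within a group and 0.67 to 0.83 in the 9 pairs between groups. The median difference per circRNA was 0.353 to 0.416 on the log2 scale within groups and 0.349 to 0.497 between groups. These correlations are across circRNAs, which are not independent replicates.

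The study asked which circRNAs change in chondrocytes given cholesterol. Among the abundant catalogued circRNAs, 7 of 77 (9.09%) had an unadjusted p under 0.05 in edgeR's quasi-likelihood test, 4 higher with cholesterol and 3 lower, against 2.46% of all 3089 listed circRNAs (1.23% in each direction). Of the 155 catalogued circRNAs with at least 60 but fewer than 120 reads, 13 (8.39%) were called, a share close to that of the 77. No difference remained after Benjamini-Hochberg adjustment over the 3089 circRNAs, where the smallest adjusted p of edgeR was 0.772 for the 77 and 0 circRNAs of the table passed. DESeq2 called 5 of the 77 at an unadjusted p under 0.05, against 1.17% of the 3089, and 0 after adjustment. With 3 libraries against 3, an exact permutation test of a single circRNA cannot give a p under 0.1, so the unadjusted p-values below rest on the spread that edgeR shares across the table. The split depended on the scaling, with 5 higher and 2 lower when only library size was used and 4 higher and 5 lower with RLE factors. Each of these fits called 79 of all 3089. Without control replicate 1, 12 of the 77 were called, 3 higher and 9 lower, against 75 of all 3089. Leaving out cholesterol replicate 3 turned the split to 6 higher against 2 lower, and leaving out cholesterol replicate 2 turned it to 2 higher against 8 lower. Over all 3089 these 2 fits called 86 and 77. In bulk RNA, a circRNA carried by fewer cells and one present at fewer copies per cell cannot be told apart.

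The largest difference of the 77 was the lower level of hsa_circ_0004594 with cholesterol. It had 13, 20 and 6 reads with cholesterol and 34, 36 and 23 in the controls, and the groups did not overlap. The mean level was 1079 ± 472 CPM with cholesterol and 2694 ± 769 in the controls, 2.39-fold lower in the fit. The log2 fold change was −1.26 (SE 0.42, 95% interval −2.07 to −0.44) with an unadjusted p of 0.00258. It stayed under 0.05 in each fit that left out 1 library, with log2 fold changes from −1.62 to −0.97.

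hsa_circ_0000958 had 56, 55 and 37 reads with cholesterol and 88, 58 and 91 in the controls. All cholesterol libraries were lower than all controls after normalisation, with 4221 ± 733 against 6733 ± 1260 CPM. The log2 fold change was −0.67 (SE 0.22, interval −1.11 to −0.24), or 1.60-fold lower, with an unadjusted p of 0.00227 in edgeR, the smallest among the 77. It too stayed under 0.05 in each fit without 1 library (unadjusted p of 0.00104 to 0.0252).

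The third lower circRNA, hsa_circ_0003327, had 13, 26 and 16 reads with cholesterol and 23, 34 and 36 in the controls. Its groups did not overlap, the log2 fold change was −0.76 (SE 0.38, interval −1.50 to −0.01) and the unadjusted p was 0.0457. The p rose above 0.05 without cholesterol replicate 1 (0.135), cholesterol replicate 3 (0.0711), control replicate 2 (0.133) or control replicate 3 (0.101). It was also above 0.05 with DESeq2 (0.0568), with library size only (0.0735) and with the legacy quasi-likelihood method (0.0674).

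Of the 4 that were higher, hsa_circ_0001017 and hsa_circ_0001006 had groups that did not overlap after TMM normalisation. hsa_circ_0001017 stood at 5002 ± 154 CPM with cholesterol and 3170 ± 60 in the controls (SD, n = 3). The log2 fold change was 0.66 (SE 0.26, interval 0.15 to 1.16), or 1.58-fold, with an unadjusted p of 0.0107 in edgeR. The spread within these groups was below counting error, so the SE of the fit and not this SD gives the error of the difference. hsa_circ_0001006 stood at 13618 ± 838 CPM with cholesterol and 9848 ± 2005 in the controls, with a log2 fold change of 0.47 (SE 0.16, interval 0.16 to 0.77) and an unadjusted p of 0.00281. Without control replicate 3, which had the lowest level, the log2 fold change was 0.31 with an unadjusted p of 0.112.

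The SMYD3 and PHLDB2 circles were called with groups that overlapped. The SMYD3 circle, hsa_circ_0005090, had 63, 94 and 52 reads with cholesterol and 42, 36 and 63 in the controls, where control replicate 3 reached the range of the cholesterol libraries. Its level was 5885 ± 1084 CPM with cholesterol and 3984 ± 899 in the controls, with a log2 fold change of 0.56 (SE 0.23, interval 0.11 to 1.02) and an unadjusted p of 0.0149. The unadjusted p in edgeR was 0.168 without cholesterol replicate 2, 0.0817 without control replicate 1 and 0.107 without control replicate 2, with log2 fold changes of 0.37, 0.47 and 0.43. The PHLDB2 circle stood at 2780 ± 1984 CPM with cholesterol and 1537 ± 490 in the controls, with a log2 fold change of 0.91 (SE 0.37, interval 0.17 to 1.64) and an unadjusted p of 0.0153. This value rested on single libraries. Without cholesterol replicate 2 it was 0.22 with an unadjusted p of 0.657, without control replicate 3 it was 0.65 with one of 0.116, and without cholesterol replicate 1 it was 1.34 with one of 3.23e-04. DESeq2 gave an unadjusted p of 0.251, and both filters on low counts gave one of 0.101.

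**Figure D4:**
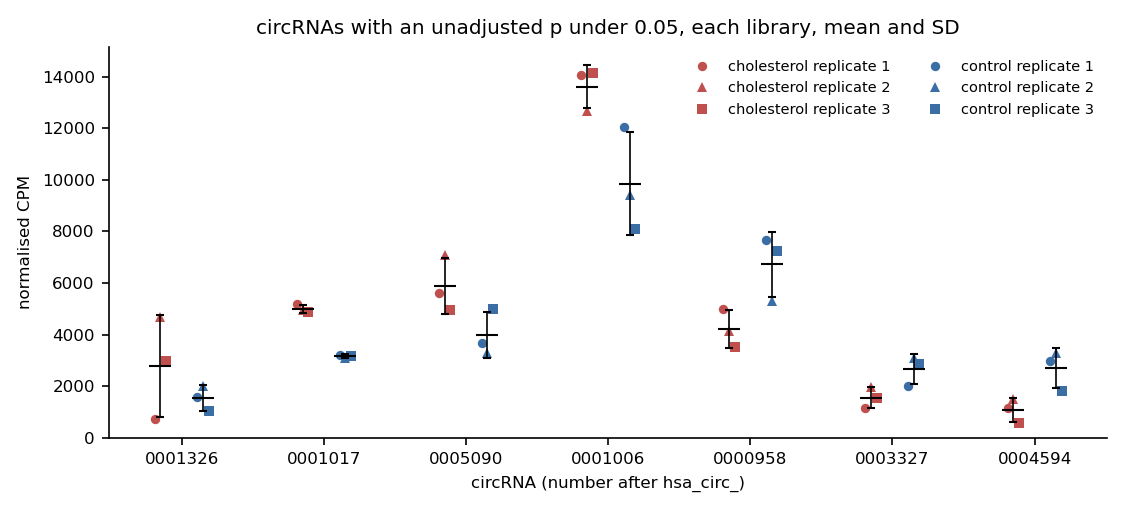
Normalised CPM of the 7 circRNAs with an unadjusted p under 0.05 in each library (points), with the group mean (wide bar) and SD (whiskers, n = 3), labelled by the number after hsa_circ_. The groups were apart for hsa_circ_0001017, hsa_circ_0001006, hsa_circ_0000958, hsa_circ_0003327 and hsa_circ_0004594, and they overlapped for hsa_circ_0001326 and hsa_circ_0005090.

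After TMM normalisation, the levels of the 2 groups did not overlap for 12 of the 77 (15.6%), 3 higher and 9 lower with cholesterol. Over all listed circRNAs the share was 4.05% (1.91% higher and 2.14% lower). Of the catalogued circRNAs with at least 60 but fewer than 120 reads, 16 of 155 (10.3%) did not overlap. Beside 5 of the 7 named above, these were hsa_circ_0007386 on the higher side and hsa_circ_0000448, hsa_circ_0001174, hsa_circ_0001355, hsa_circ_0001535, hsa_circ_0000567 and hsa_circ_0006151 on the lower side. The names of the last 3 were chosen after their values were seen. Overlap was counted with TMM factors only and may depend on the scaling. The TMM factor of cholesterol replicate 3 was 1.14 and its RLE factor 1.06, and a larger factor gives lower levels.

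Among these, the circle of the long non-coding MIR646HG stood at 6029 ± 753 CPM with cholesterol and 7689 ± 155 in the controls, with a log2 fold change of −0.36 (SE 0.20, interval −0.74 to 0.03) and an unadjusted p of 0.0701. The RSRC1 circle had 27, 50 and 22 reads with cholesterol and 50, 46 and 48 in the controls. Its log2 fold change was −0.55 (SE 0.28, interval −1.10 to 0.00) with an unadjusted p of 0.0501. Without cholesterol replicate 2, its highest cholesterol library, it was −0.89 with an unadjusted p of 0.00743, and without cholesterol replicate 3 it was −0.38 with one of 0.204. With all libraries, the unadjusted p in edgeR was 0.0407 with RLE factors, 0.0403 and 0.0497 with the filters on low counts and 0.0143 with the replicate block. DESeq2 gave 0.0573, library size only 0.0891 and the legacy method 0.0557. The most abundant circle of all, hsa_circ_0000448, had a log2 fold change of −0.20 with an interval of −0.48 to 0.08. After TMM normalisation its 3 cholesterol libraries lay close together below the controls.

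Most of the 77 had small fitted differences between the groups. The intervals were narrower for the more abundant of them, with an SE of 0.143 at 1026 reads and 0.433 at 120. With a shared spread, this width follows from the reads, by which the 77 were chosen. The log2 fold changes ran from −1.26 to 0.91 with a median of −0.05, against −0.22 over all listed circRNAs. The median over all listed circRNAs was 0 in each fit without 1 control library and −0.04 with edgeR's filter on low counts. Without cholesterol replicate 1, 2 or 3 it was −0.33, −0.49 and −0.15. The median of the 77 ran from −0.15 (without cholesterol replicate 2) to 0.02 (without cholesterol replicate 1) in the fits without 1 library, with −0.14 without control replicate 3, and it was 0.03 with library size only. In the reported fit 35 log2 fold changes were above 0 and 42 below. The absolute log2 fold change was under 0.5 for 59 and over 1 for 1. The 95% interval lay within −1 and 1, that is, within a 2-fold difference either way, for 46 of the 77 (59.7%), for 17 of the 20 most abundant and for 8 of the 20 least abundant. With DESeq2 it lay within these bounds for 32 of the 77, all of them among the 46, and for 16 of the 20 most and 3 of the 20 least abundant. The edgeR intervals use a spread shared over the table in place of that of each circRNA. Thus hsa_circ_0006988, whose variance was 9.07 times counting error, was inside with edgeR (−0.47 to 0.93) and not with DESeq2 (−1.25 to 1.92). Outside the 77 the edgeR interval lay within the bounds for 12 of 3012 circRNAs, a contrast that follows from the choice by reads. Without cholesterol replicate 2, the deepest library, it held for 30 of the 77.

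The ZNF124 circle had 10823 ± 1712 CPM with cholesterol and 11236 ± 754 in the controls, with a log2 fold change of −0.06 and an edgeR interval of −0.37 to 0.26. With DESeq2 its interval was −0.42 to 0.31. hsa_circ_0001445 had a log2 fold change of 0.09 with an interval of −0.23 to 0.41, and with DESeq2 the interval was −0.60 to 0.82. The log2 fold change was 0.14 for hsa_circ_0008896 (interval −0.20 to 0.47) and 0.17 for hsa_circ_0005158 (−0.18 to 0.52). The value of the ATXN10 circle moved with several libraries. It had 45, 109 and 40 reads with cholesterol and 62, 86 and 77 in the controls, with a log2 fold change of −0.24 (interval −0.65 to 0.17), and in the fits without 1 library the value ran from −0.75 (without cholesterol replicate 2, unadjusted p of 0.00375) to −0.04 (without cholesterol replicate 3). For the 2 DLG1 circles, which share their first exon, the log2 fold changes were −0.18 and −0.09 and both groups overlapped. The value of the longer circle ran from −0.41 (without cholesterol replicate 2) to −0.04 (without control replicate 1) in the fits without 1 library. The NF2 circle, at the limit of 120 reads, had a log2 fold change of −0.84 with an interval of −1.69 to 0.01. At this depth the interval leaves differences from none to more than 2-fold. Its unadjusted p in edgeR was 0.0516. With RLE factors it was 0.0462, with the filters on low counts 0.0494 and 0.0446, and with the replicate block 0.0175. DESeq2 gave 0.0664, library size only 0.0734 and the legacy method 0.0696. Without 1 library it ran from 0.0134 (control replicate 3) to 0.232 (control replicate 1).

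**Figure D5:**
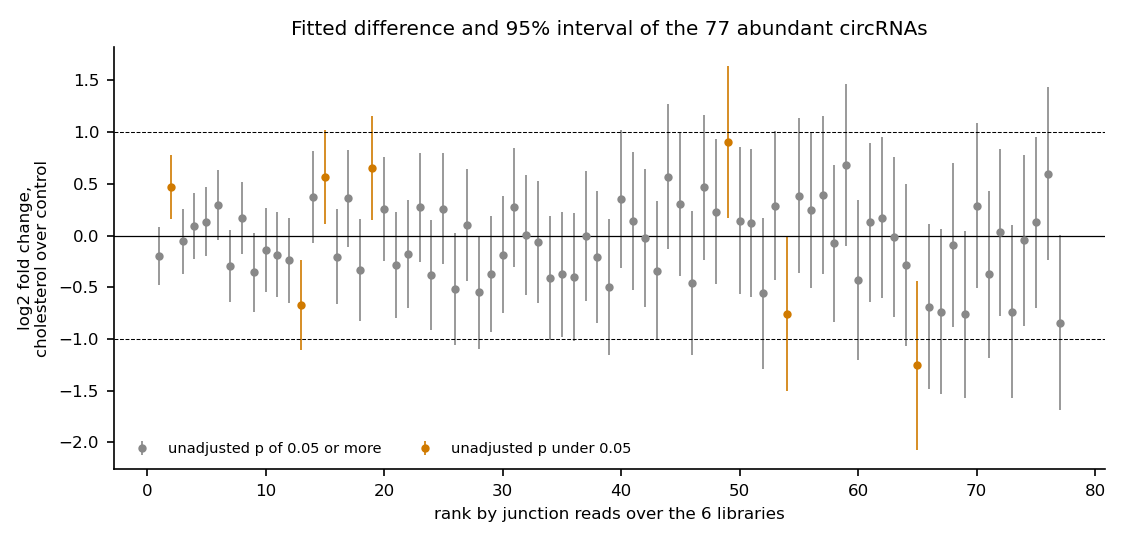
Log2 fold change of cholesterol over control with its 95% interval from the edgeR fit for each of the 77 circRNAs, by rank of reads; orange marks an unadjusted p under 0.05 and dashed lines mark a 2-fold difference. The intervals widen with rank and lie within the dashed lines for 46 of the 77.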

How the data were processed

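Junction reads were measured in 6 libraries of C28/I2 cells. The authors depleted ribosomal RNA, digested linear RNA with RNase R, trimmed reads with cutadapt 2.7, aligned them to GRCh38 with BWA 0.7.17 and took the back-splice reads found by CIRI as counts, which they deposited without normalisation. The deposited columns headed TPM are CPM, the same counts scaled to a fixed total without a length term, and served as a check of the counts.

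The groups were taken from the labels. The test was edgeR 4.0.16 (R 4.3.3), quasi-likelihood with TMM factors and no filter, fitted over all 3089 circRNAs with the treatment as the only term. Intervals are the estimate plus or minus the t quantile times the SE, with a spread shared over the table. DESeq2 1.42.0, other scalings, filters, read limits, a replicate block and leaving out each library were alternatives. Positions used GENCODE v44, and starts in the sequence list were taken as counted from 0. The circRNAs named were the 10 with most reads, those with an unadjusted p under 0.05, those in the sequence list, the 3 most and 3 least variable, those beside the limit of 120 reads and the one nearest to no change. The members, lists and this rule were chosen with earlier results of these data known.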

Additional observations from a re-analysis of the deposited data

How the results depend on the processing

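The number of the 77 abundant circRNAs with an unadjusted p under 0.05 (7 in the reported test) was 15 with a replicate block, 20 of 232 at a limit of 60 reads and 4 of 28 at a limit of 240 reads. Over all 3089 circRNAs, 51 were called with the block and 76 in the reported test, whose fit both limits share. The replicate block gave 4 higher and 11 lower. The labels do not say whether the numbers pair the samples. Over the 331 circRNAs with reads in all 6 libraries, same-numbered libraries correlated at 0.01, 0.01 and −0.10 in their deviations from the group means. Over the 77 these values were 0.18, 0.40 and −0.13, and not every library correlated best with its own number. Deviations within groups of 3 libraries cannot decide whether the samples were paired. Leaving out 1 library gave 6 to 12 calls, with 12 (3 higher, 9 lower) without control replicate 1 and splits from 2 higher and 8 lower (without cholesterol replicate 2) to 6 higher and 2 lower (without cholesterol replicate 3). Over all 3089 circRNAs, the fits without 1 library called 66 to 86. The other tools, scalings and filters gave 5 to 9 calls among the 77, and both filters on low counts gave 3 higher and 6 lower. The filters called 18 of 254 and 68 of 1100 circRNAs in all, and the other tools and scalings 36 to 79 of 3089. No alternative gave an adjusted p under 0.05 for any of the 77, and for the 7 called the adjusted p ran from 0.333 to 1.0. Intervals within a 2-fold difference (46) numbered 23 of 28 at a limit of 240 reads and 30 to 46 without 1 library, with 30 without cholesterol replicate 2. They numbered 32 with DESeq2, 39 with the legacy method and 55 with the replicate block.

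The mean share of junction reads was 47.9% with cholesterol and 46.0% in the controls at a limit of 60 reads, 17.9% and 17.1% at 240, and 32.7% and 32.3% among catalogued circRNAs alone. Without 1 library it was 28.0 to 29.4% and 27.3 to 29.1%. Sign changes among the named circRNAs were these. The log2 fold change of hsa_circ_0002755 was −0.0239 with DESeq2, −0.00807 with the legacy method and −0.0182 with the replicate block, and that of hsa_circ_0002922 was 0.0277 with library size only. Without 1 library, the log2 fold change ran from −0.20 to 0.57 for hsa_circ_0000478, from −0.0187 to 0.19 for hsa_circ_0001307, from −0.28 to 0.16 for hsa_circ_0001383, from −0.14 to 0.24 for hsa_circ_0001445, from −0.49 to 0.42 for hsa_circ_0002755, from −0.16 to 0.0354 for hsa_circ_0002922, from −0.0840 to 0.32 for hsa_circ_0005158, from −0.15 to 0.66 for hsa_circ_0006988 and from −0.00905 to 0.27 for hsa_circ_0008896. The cause of these changes was not tested. The depth was 5 to 195 reads per circRNA and library.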
